A study of Mus musculus with 3 samples.

Results

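The genes described here are the mouse Usp and Otud genes, which encode deubiquitinases of the ubiquitin-specific protease and OTU families, and the positions on their RNA at which CELF1 was crosslinked in heart, skeletal muscle and C2C12 cells. Members were all genes whose official symbol starts with Usp and a digit or with Otud, matched through the Entrez identifier that each deposited cluster carries. Of 67 such symbols in the RefSeq gene table, 64 are protein-coding, and 38 genes, 34 Usp and 4 Otud, held at least 1 cluster. Together these 38 genes held 438 of the 72222 clusters of the series and were 38 of the 8037 genes with any cluster. The symbol rule also takes Usp6nl, whose product is a Rab GTPase-activating protein and not a deubiquitinase.

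Crosslinking and immunoprecipitation followed by sequencing (CLIP-seq) was performed with the 3B1 monoclonal antibody against endogenous CELF1 after irradiation at 254 nm. The heart library came from ventricle and the muscle library from a muscle that the labels do not name, both from C57/BL6 mice aged 16 weeks, with no transgene or treatment stated for the CLIP samples. The third library came from cultured C2C12 cells, an established mouse myoblast line. There was 1 library per source, so no difference between sources below has a replicate check, and every interval given covers counting error only. A cluster is a stretch of RNA that the authors called as bound, and since the files hold positions and no RNA levels, stronger binding and more of the RNA cannot be told apart.

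Ubiquitin is attached to proteins by ligases and removed by deubiquitinases, which trim or cleave ubiquitin chains and so alter the stability, location or partners of the tagged protein. The Usp family is built around a cysteine protease domain and the Otud genes around the ovarian tumour protease domain. CELF1 is an RNA-binding protein that prefers UGU-containing sequence. It also acts on splicing. The study found that alternative exons bound by CELF1 were mostly repressed, while binding in flanking introns had no consistent direction. In 3′ UTRs CELF1 recruits deadenylases and promotes mRNA decay.

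Some 3′ UTR positions were bound in all 3 libraries, and the sequences below show what those shared positions look like. Each is the window of at most 30 nt with the most UGU inside a stretch common to clusters of heart, muscle and C2C12, read 5′ to 3′ on the transcript strand from the NCBIM37 (mm9) genome, with every UGU in capitals. All lie in annotated 3′ UTRs. Of 13 such stretches 10 are shown, and those left out are an Otud4 stretch of 8 nt and a pair in Usp14 with 2 and 6 UGU.
Otud4, chr8:82198799-82198828, plus strand: gauaggcuucucuauaaaagagUGUuuUGU
Otud4, chr8:82198975-82199004, plus strand: uuUGUaguucuucccgucagugcUGUGUGU
Otud4, chr8:82199881-82199910, plus strand: agaaguagcuuuuuccagUGUcuuuUGUGU
Otud4, chr8:82201059-82201088, plus strand: uuuuUGUuUGUuUGUuuuuUGUUGUuuUGU
Otud4, chr8:82201420-82201449, plus strand: uauauugcUGUuuauuuuucuaUGUucUGU
Usp5, chr6:124765081-124765110, minus strand: agccuccggucUGUcuuuaugguccucugg
Usp5, chr6:124765227-124765256, minus strand: gUGUGUGUggaUGUggcuuuaugcaucuuu
Usp7, chr16:8689769-8689798, minus strand: uacuucUGUuUGUuucUGUagcagcagUGU
Usp40, chr1:89841817-89841830, minus strand: ugacaggccuaucu
Otud6b, chr4:14738128-14738157, minus strand: guaacuccugcauugcugguuucuccagca

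The richest of these windows, in Otud4, held 6 UGU in 30 nt, while 3 of the 13 shared stretches held 0, in Otud6b, Usp40 and the 8 nt of Otud4. Over all 3 libraries, 432 of the 438 member clusters held at least 1 UGU. The share was 99.6% in heart (235 of 236, 95% exact interval 97.7 to 99.99%), 98.2% in muscle (163 of 166, 94.8 to 99.6%) and 94.4% in C2C12 (34 of 36, 81.3 to 99.3%). Over all clusters of the same libraries the shares were 98.3%, 98.4% and 86.4%. UGU is a common triplet and was counted on the transcript strand over the whole cluster, so these shares describe the sequence and do not locate the crosslink. The 6 member clusters without UGU were in Usp13 (1 in heart and 1 in muscle, at the same place), Usp5 and Usp48 in muscle, and Otud6b and Usp47 in C2C12.

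Deubiquitinase genes were bound more widely in heart than in muscle and least in C2C12, in the order of the size of the cluster lists. Of the 64 protein-coding members, 38 (59.4%) had a cluster in some library, where 36.6% of all protein-coding genes in the RefSeq table did. Heart held a cluster for 36 of the 38 (94.7%, against 85.3% of all genes with a cluster anywhere). Muscle did for 29 (76.3%, against 66.5%) and C2C12 for 18 (47.4%, against 34.3%). All 3 libraries had clusters in 15 members (39.5%, against 22.7% of all genes). The libraries held 42263, 24844 and 5115 clusters in heart, muscle and C2C12, of which members took 236, 166 and 36. As shares these were 0.558% (0.490 to 0.634%), 0.668% (0.571 to 0.777%) and 0.704% (0.493 to 0.973%), with intervals that overlap. A bound member held a median of 5 clusters in heart, 4 in muscle and 1.5 in C2C12, where a bound gene in general held 3, 3 and 1.

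**Figure D1:**
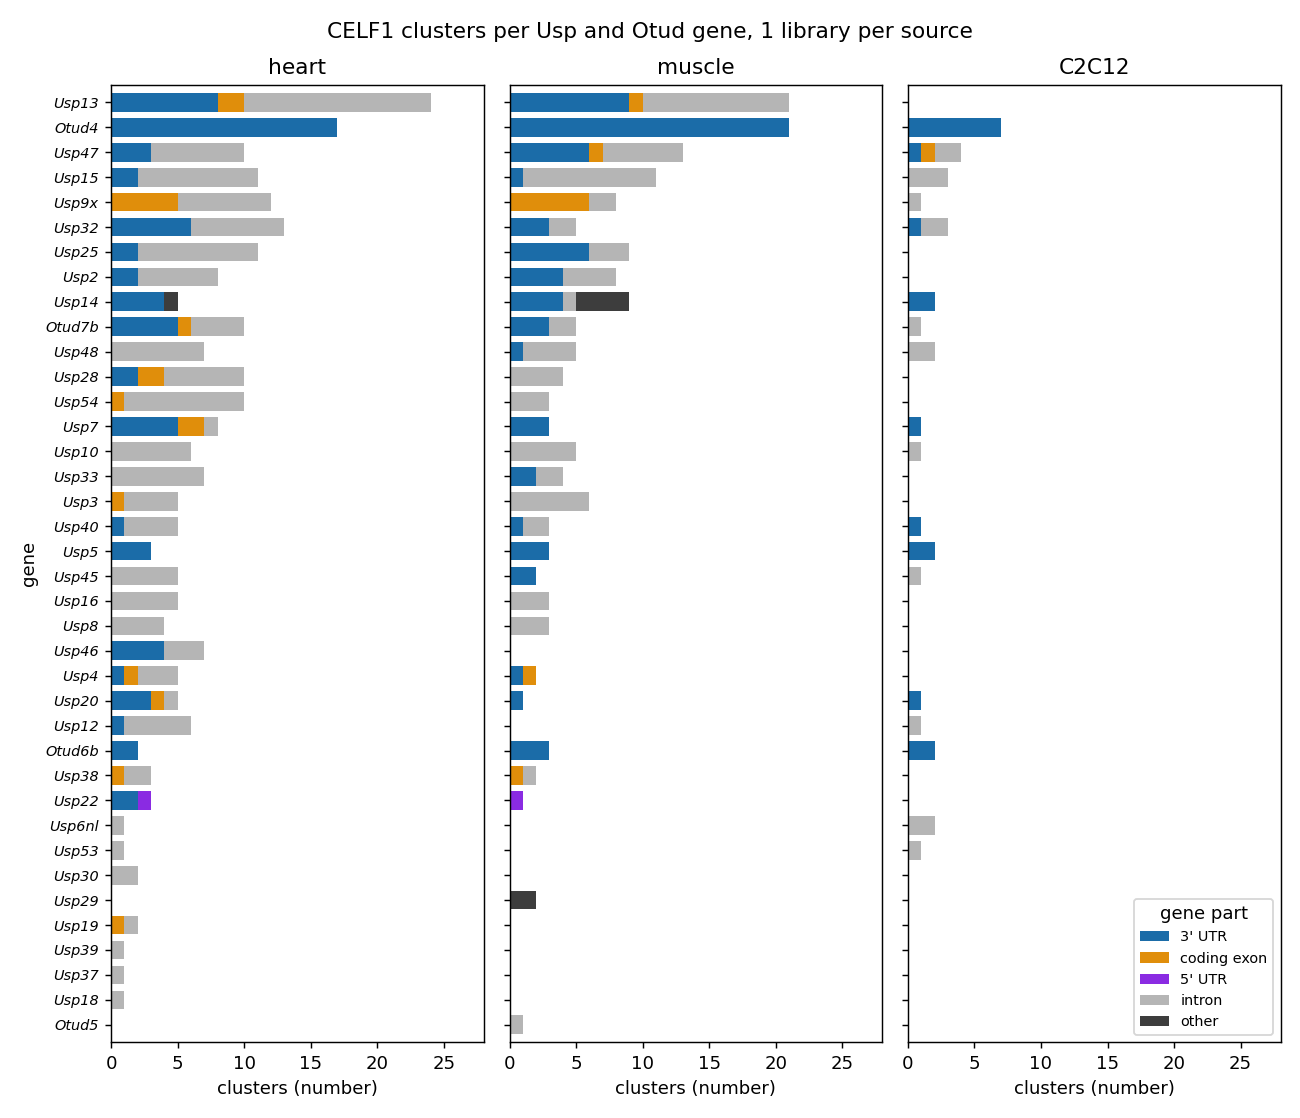
Number of CELF1 clusters (x axis) in each of the 38 bound Usp and Otud genes (y axis) in the heart, muscle and C2C12 libraries, with colours for the gene part. Usp13 reached 24 clusters in heart and 21 in muscle with 0 in C2C12, while all 17, 21 and 7 clusters of Otud4 lay in its 3′ UTR.

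Otud4, an OTU-family deubiquitinase, and Usp13, a close relative of Usp5, held the most clusters, 45 each, and together 20.5% of all member clusters. Otud4 (chr8:82163517-82201654) was bound in its 3′ UTR and nowhere else, at 17 clusters in heart, 21 in muscle and 7 in C2C12. Of the 4014 nt of its annotated 3′ UTR, heart clusters covered 39.0%, muscle clusters 43.1% and C2C12 clusters 8.15%. They ran from nt 281 to nt 3664 of a terminal 3′ UTR stretch of 3773 nt. Few genes had as many 3′ UTR clusters: 39 of 4145 genes with a 3′ UTR cluster reached the Otud4 count or more in heart, 21 of 3611 in muscle and 8 of 1138 in C2C12, Otud4 included. The positions recurred, with 16 of the 17 heart clusters meeting a muscle cluster, 7 of the 7 C2C12 clusters meeting muscle and 6 of 7 meeting heart.

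Usp13 (chr3:32716468-32836993) showed another layout. Heart and muscle held 24 and 21 clusters and C2C12 held 0, where a count of 0 allows up to 3 clusters. In heart 8 were in the 3′ UTR, 2 in coding exons and 14 in introns, and in muscle 9, 1 and 11. The 17 3′ UTR clusters of heart and muscle lay between nt 188 and nt 1304 of a 3′ UTR of 4838 nt, so that the distal part of the annotated 3′ UTR held none. They covered 16.5% of it in heart and 17.2% in muscle. Exons and introns are numbered on the transcript with the longest coding sequence. Of the intron clusters, the pairs shared by heart and muscle were in introns 3, 4 and 13. Of the 2 shared pairs in intron 13, one held 20 UGU in heart and 18 in muscle and the other 11 and 7. No deposited cluster of a member was wider than 126 nt, and long bound stretches such as nt 801 to 1228 of the Usp13 3′ UTR in heart were written as several clusters a few nt apart, so a count of clusters is not a count of separate sites.

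**Figure D2:**
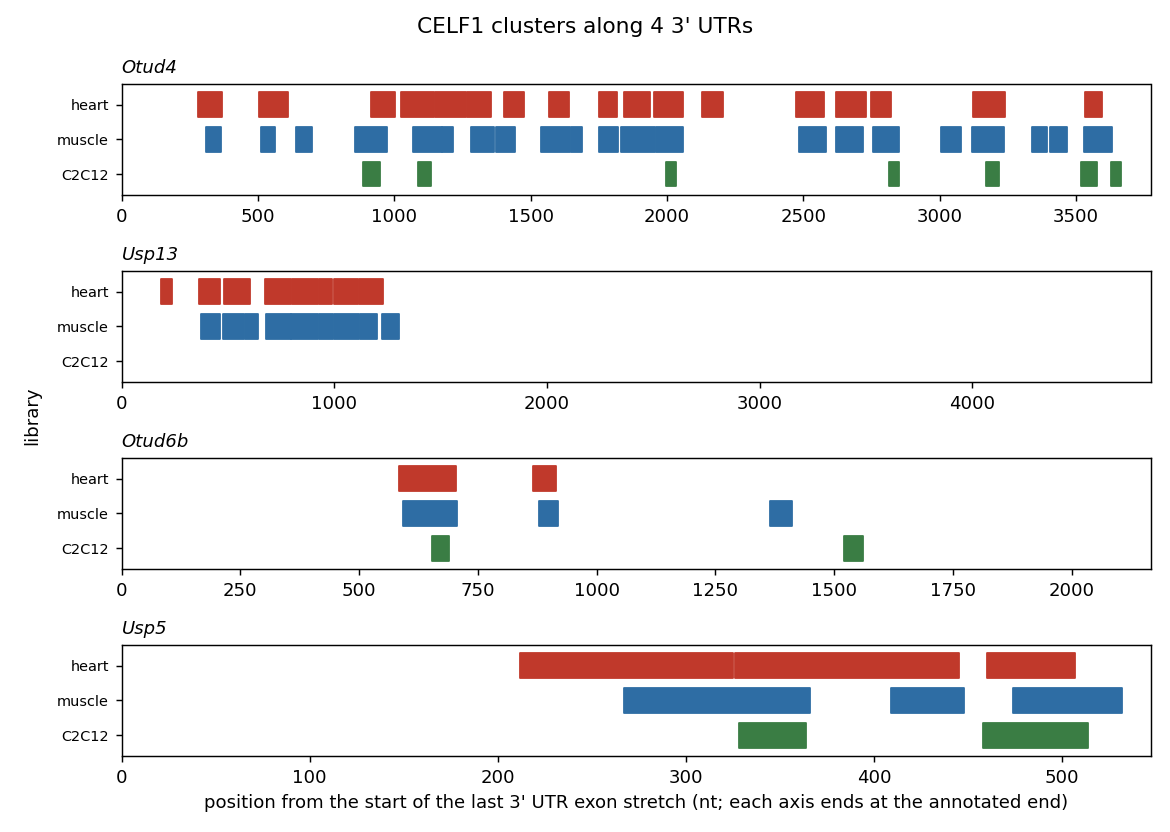
Clusters (bars) along the terminal 3′ UTR stretch of Otud4, Usp13, Otud6b and Usp5, in nt from its start, with 1 row per library and a separate x axis per gene that ends at the annotated end. Otud4 clusters spread from nt 281 to nt 3664, while Usp13 clusters stop at nt 1304 of 4838.

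Member clusters lay mostly in introns and 3′ UTRs. The part is that of the cluster midpoint, with the 3′ UTR of any protein-coding transcript taken first. In the heart library 73 of 236 member clusters were in 3′ UTRs (30.9%, 25.1 to 37.3%), where 33.0% of all heart clusters were. In muscle 74 of 166 were (44.6%, 36.9 to 52.5%, against 50.0%) and in C2C12 18 of 36 (50.0%, 32.9 to 67.1%, against 33.9%, which lies inside the interval of the members). Introns held 143 member clusters in heart (60.6%, against 58.7% of all), 75 in muscle (45.2%, against 43.2%) and 17 in C2C12 (47.2%, against 60.4%). Coding exons held 18, 10 and 1, and 5′ UTRs held 1, 1 and 0.

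**Figure D3:**
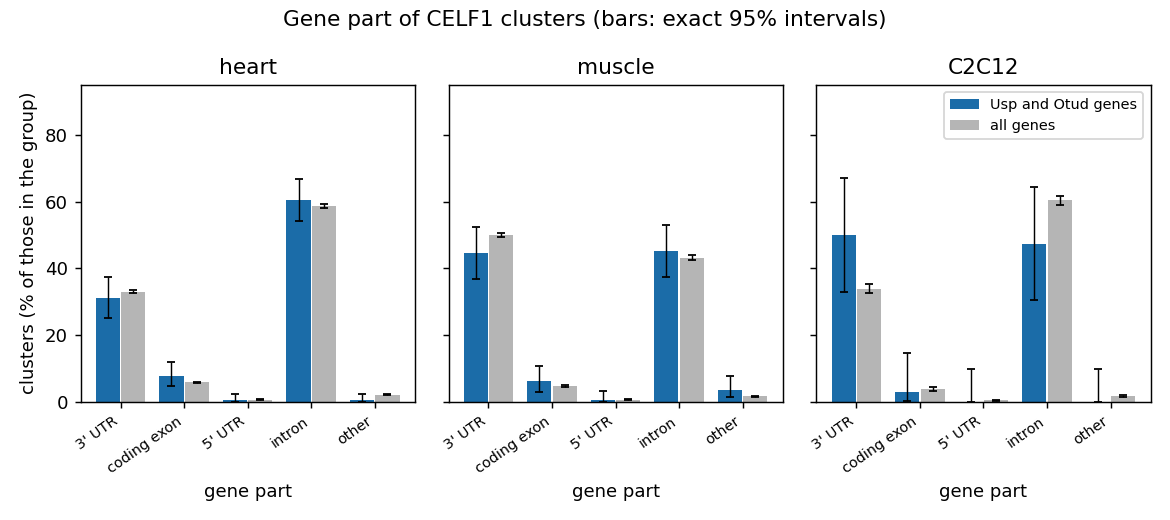
Share of clusters in each gene part for Usp and Otud genes and for all genes, with exact 95% intervals. The y axis is the % of that group's clusters in the library. The 3′ UTR share of members was 30.9% in heart, 44.6% in muscle and 50.0% in C2C12.

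Between heart and muscle the 3′ UTR share of member clusters differed by -13.6 percentage points, heart being lower (odds ratio 0.557, two-sided Fisher's exact test, adjusted p = 0.0186 over 3 pairs of libraries). Over all clusters the difference had the same direction and was larger, with 33.0% in heart and 50.0% in muscle, so it was not particular to the members. Between heart and C2C12 the difference was -19.1 points (Fisher's exact adjusted p = 0.0535), and muscle and C2C12 differed by -5.42 points (Fisher's exact adjusted p = 0.584). With clusters of at least 50 nt the muscle minus C2C12 difference turned to 1.90 points (Fisher's exact adjusted p = 1). The heart minus C2C12 difference passed the threshold by any base of the cluster (Fisher's exact adjusted p = 0.0203), with coding exon before 3′ UTR (0.0333) and without Usp6nl (0.0281). These tests compare libraries and not tissues, and clusters of 1 gene are not independent of each other. The lists also share positions, as 58.4% of muscle member clusters met a heart cluster. Otud4 carried 27.3% of all member 3′ UTR clusters, and without it the heart and muscle difference was -11.0 points (Fisher's exact adjusted p = 0.0808), and with Usp genes only it was -10.9 points (Fisher's exact adjusted p = 0.109).

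A 3′ UTR cluster in some library was found in 22 of the 38 bound members (57.9%, against 62.9% of all genes with a cluster). Heart accounted for 19 of those 22 (86.4%, against 81.9% of genes with a 3′ UTR cluster anywhere). Muscle accounted for 18 (81.8%, against 71.4%) and C2C12 for 9 (40.9%, against 22.5%). The same 9 genes had 3′ UTR clusters in all 3 libraries (40.9%, against 15.2%): Otud4, Otud6b, Usp5, Usp7, Usp14, Usp20, Usp32, Usp40 and Usp47. Every member with a 3′ UTR cluster in C2C12 thus had one in both tissues, as did 771 of the 1138 genes with a 3′ UTR cluster in C2C12.

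Of those 9, Usp5 disassembles unanchored ubiquitin chains and Usp14 trims chains at the proteasome. Usp5 (chr6:124765037-124779502) had 3, 3 and 2 clusters in heart, muscle and C2C12, all within a 3′ UTR of 547 nt. That came to 5.48 clusters per kb of 3′ UTR in heart and in muscle and 3.66 in C2C12, the highest density of any member in C2C12. Usp14, on chromosome 18, had the highest density in heart and muscle, with 6.02 3′ UTR clusters per kb in each and 3.01 in C2C12. It had 4 3′ UTR clusters in heart, 4 in muscle and 2 in C2C12. A further 1 heart and 4 muscle clusters of Usp14 lay 682 to 1663 nt past its annotated end, and were not counted as 3′ UTR.

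Otud6b, an OTU-family member, had 2, 3 and 2 clusters in heart, muscle and C2C12, all in a 3′ UTR of 2166 nt, and 1 of its 2 C2C12 clusters met both tissues. Usp7, which acts on Mdm2 and p53, had 8 clusters in heart (5 in the 3′ UTR, 2 in coding exons 5 and 16), and 3 in muscle and 1 in C2C12, all in the 3′ UTR. The C2C12 cluster of Usp7 met a cluster of heart and of muscle. Usp47, which deubiquitinates DNA polymerase beta, had 3 3′ UTR clusters in heart, 6 in muscle and 1 in C2C12, of 10, 13 and 4 clusters. The muscle clusters covered 45.1% of its 3′ UTR of 1267 nt and the heart clusters 22.1%. Usp32 had 13, 5 and 3 clusters, of which 6, 3 and 1 were in the 3′ UTR, and none of its C2C12 clusters met a heart or muscle cluster. Usp20 had 3, 1 and 1 3′ UTR clusters, and Usp40 had 1 in each library, at a shared place near its annotated end.

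Usp25, known for a muscle isoform, had 11 clusters in heart and 9 in muscle, and none in C2C12. In heart 2 of them were in the 3′ UTR and 9 in introns, and in muscle 6 were in the 3′ UTR and 3 in introns. Its 3′ UTR clusters covered 12.7% of 1217 nt in heart and 36.1% in muscle. Usp28, its paralog, had 10 clusters in heart, of which 2 were in the 3′ UTR and 2 in coding exons 13 and 21, and 4 in muscle, all in introns. The heart and muscle clusters of Usp28 met at 2 places, both in intron 12. Usp2, which is expressed under circadian control, had 8 clusters in each tissue and 0 in C2C12, with 2 in the 3′ UTR in heart and 4 in muscle.

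Coding exons held 29 member clusters, and 11 of them (37.9%) were in Usp9x, a deubiquitinase that acts on Smad4 among other proteins. A coding exon cluster was present in 12 of the 38 bound members (31.6%, against 23.6% of all genes with a cluster). Usp9x (chrX:12648624-12759008) had 12 clusters in heart, of which 5 were in coding exons and 7 in introns, 8 in muscle (6 and 2) and 1 in C2C12, in an intron. None lay in its 3′ UTR, which at 6132 nt is the longest of the bound members. Heart and muscle met in exons 6, 13 and 32, heart alone was bound in exons 24 and 30, and muscle alone in exons 22, 39 and 40. The coding exon clusters of Usp9x held 1 to 3 UGU each.

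Usp38 and Usp4 each had 1 coding exon cluster in heart and 1 in muscle at the same place, in exons 9 and 14 respectively. Usp4 acts on the TGF-beta type I receptor, and had 5, 2 and 0 clusters in the 3 libraries. Usp22, the ubiquitin protease of the SAGA complex, held both 5′ UTR clusters of the set, 1 in heart and 1 in muscle, which met in exon 1. In heart it also had 2 3′ UTR clusters. Usp3, which acts on histone H2A, had 5 clusters in heart, with 1 in coding exon 8, and 6 in muscle, all in introns. Usp54 had 10 clusters in heart, 1 of them in coding exon 20, and 3 in muscle. The single coding clusters of Otud7b, Usp20 and Usp19 were in heart, in exons 3, 17 and 7, and Usp47 had 1 in muscle (exon 24) and 1 in C2C12 (exon 16).

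Intron clusters were present in 33 of the 38 bound members (86.8%, against 70.5% of all genes with a cluster), and 10 members had nothing else (26.3%, against 26.5% of all genes with a cluster). Usp10, which binds G3BP1 and acts on p53, had all of its 6 heart, 5 muscle and 1 C2C12 clusters in introns. Usp15, which acts on Smad signalling, had 11, 11 and 3 clusters, of which 9, 10 and 3 were in introns, and 6 of its 11 heart clusters met muscle. Usp8, which sorts endosomal receptors, had 4 and 3 and Usp16, a histone H2A deubiquitinase, 5 and 3 in heart and muscle, all in introns. Usp33 had 7 intron clusters in heart, and 2 intron and 2 3′ UTR clusters in muscle. Intron clusters of members lay at a median of 1306 nt from the nearest exon edge in heart, 1637 nt in muscle and 1465 nt in C2C12, where all intron clusters lay at 3667, 2734 and 2481 nt. Intron lengths were not matched, and the largest distance in heart was 11900 nt for members and 437741 nt for all. Within 300 nt of an exon edge were 32 of 143 in heart (22.4%, 15.8 to 30.1%, against 12.5% of all), 11 of 75 in muscle (14.7%, 7.56 to 24.7%, against 15.1%) and 3 of 17 in C2C12 (17.6%, 3.80 to 43.4%, against 16.4%).

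Usp12 and Usp46, a pair of paralogs that need the WD40-repeat proteins Wdr48 and Wdr20 for activity, had clusters in heart and none in muscle. Usp46 (chr5:74394487-74464455) had 7 clusters in heart, 4 in the 3′ UTR and 3 in introns, and 0 in muscle and C2C12. Usp12 had 6 in heart (1 in the 3′ UTR, 5 in introns), 0 in muscle and 1 in C2C12. A muscle count of 0 allows up to 3 clusters. With 3 in its place, the heart share was 1.18-fold that of muscle for Usp12 and 1.37-fold for Usp46. Wdr48 had 3, 0 and 0 clusters and Wdr20 had 6, 0 and 0. Usp1, the third enzyme that pairs with Wdr48, had 0 in every library. These 5 genes, joined after their values were seen, held 22 heart clusters, 0 muscle clusters and 1 C2C12 cluster. Since they were joined for that pattern, no ratio over the group is given. Of the other listed cofactors of deubiquitinases, Gmps, which activates Usp7, had 5, 6 and 0 clusters, and G3bp1, the partner of Usp10, had 5, 6 and 3.

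Of the 38 bound members, 6 (15.8%, against 23.4% of all genes with a cluster) had clusters in heart alone, 2 (5.26%, against 8.05%) in muscle alone and 0 (against 5.13%) in C2C12 alone. Beside Usp46, Usp30 and Usp19 had 2 clusters each in heart alone, and Usp18, Usp37 and Usp39 had 1. Usp30 sits on the outer mitochondrial membrane and opposes mitophagy, and both of its clusters were in intron 7. Usp19, which has a form anchored in the endoplasmic reticulum, had 1 in an intron and 1 in coding exon 7, the latter with 13 UGU. Usp18 removes the ubiquitin-like protein ISG15, and Usp39 is a splicing factor without protease activity. In muscle alone, Otud5 had 1 intron cluster and Usp29 had 2 clusters. Both Usp29 clusters lay about 193 kb upstream of the annotated Usp29 gene, and their gene part was not assigned.

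Between libraries, a gene with at least 5 clusters in 1 library was set apart where its share of library clusters differed by 3-fold or more. Between heart and muscle 24 members could be compared, and Usp14 was past the rule, with 5 and 9 clusters and a share 3.06-fold higher in muscle (0.922 to 11.6). Of these, 4 in each tissue were in its 3′ UTR, and 1 in heart and 4 in muscle lay past its annotated end. Usp14 was thus 1 of 24 higher in muscle, where 7.91% of all genes were, and 0 of 24 were higher in heart, where 10.4% were. The 0 higher in heart depends on how a muscle count of 0 is handled. With 3 in its place, Usp46 came to 1.37-fold and Usp12 to 1.18-fold, so neither could pass. Of the 13 members compared between muscle and C2C12, 0 were past the rule, where 3.90% of all genes were higher in muscle and 6.55% in C2C12. Few members could have passed as higher in muscle. Usp9x, at 8 muscle clusters against 1 in C2C12, came to 1.65-fold, and Usp13, at 21 against 0, to 1.44-fold. The 0 higher in muscle was thus largely set by the sizes of the lists. Between heart and C2C12, 3 of 24 were higher in C2C12 (8.84% of all genes) and 0 higher in heart (1.98% of all genes). Even against 1 C2C12 cluster, the rule asked for more heart clusters than the 24 of Usp13, the most of any member. The 0 higher in heart was therefore fixed by the sizes of the lists. The 3 higher in C2C12 were Otud4, 3.40-fold (1.19 to 8.63), Usp14, 3.31-fold (0.315 to 20.2), and Usp47, 3.31-fold (0.757 to 11.5). Only for Otud4 among these did the counting interval leave out a ratio of 1, and a share in the small C2C12 list depends on how many clusters that list holds in all. As a share of library clusters, Otud4 was also 2.10-fold higher in muscle than in heart (1.06 to 4.24). Its counts were closer, at 21 and 17, as were the parts of its 3′ UTR covered, at 43.1% and 39.0%. The ratio thus depends on the smaller muscle list, and the interval counts neighbouring clusters as separate.

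A larger share of 3′ UTR clusters than of intron clusters was met in another library. Of the member 3′ UTR clusters, 48 of 73 in heart met a muscle cluster by at least 1 bp on the same strand (65.8%, 53.7 to 76.5%), where 53.8% of all heart 3′ UTR clusters did. In the other direction 52 of 74 did (70.3%, 58.5 to 80.3%, against 60.9%). Of the 18 C2C12 3′ UTR clusters, 14 met heart (77.8%, 52.4 to 93.6%, against 59.3%) and 15 met muscle (83.3%, 58.6 to 96.4%, against 50.9%). Otud4 alone gave 16 of the 48 heart clusters and 16 of the 52 muscle clusters. From C2C12 it gave 6 of the 14 and 7 of the 15. Its clusters neighbour each other in 1 3′ UTR, while the intervals count each cluster as independent. Of the intron clusters, 39 of 143 in heart met muscle (27.3%, 20.2 to 35.3%, against 18.9%) and 38 of 75 in muscle met heart (50.7%, 38.9 to 62.4%, against 43.6%). In C2C12, 6 of 17 intron clusters met heart (35.3%, against 20.2% of all) and 3 met muscle (17.6%, against 11.3%).

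**Figure D4:**
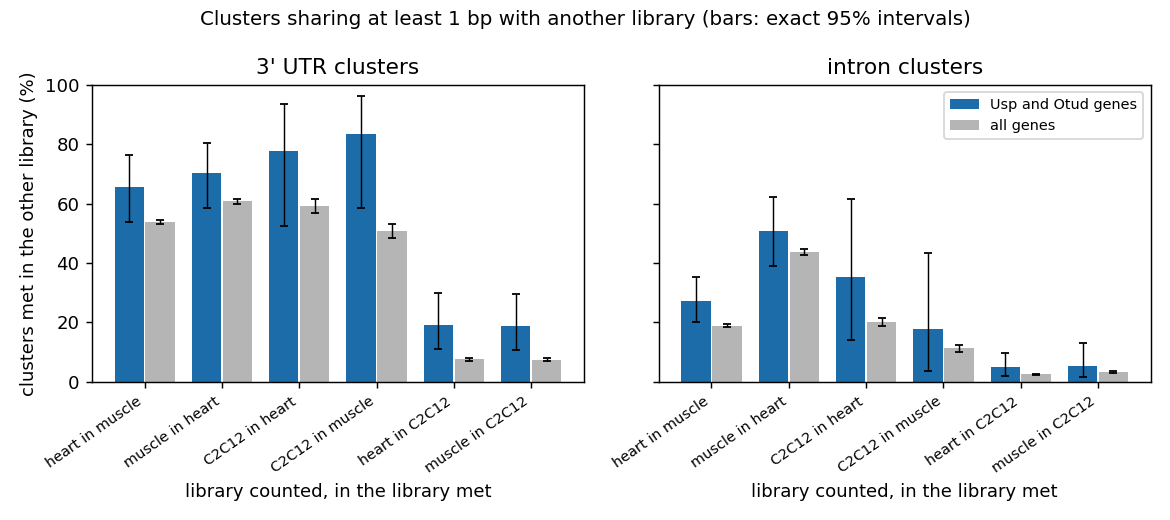
Share of clusters (y axis, %) that meet a cluster of another library by at least 1 bp, for 3′ UTR and intron clusters of Usp and Otud genes and of all genes, with exact 95% intervals. For 3′ UTR clusters of members, 65.8% of those in heart met muscle and 83.3% of those in C2C12 met muscle.

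Over all gene parts, 39.8% of member clusters in heart met muscle (33.5 to 46.4%, against 30.9% of all), 58.4% in muscle met heart (50.5 to 66.0%, against 52.8%), 55.6% in C2C12 met heart (38.1 to 72.1%, against 33.9%) and 50.0% met muscle (32.9 to 67.1%, against 25.0%). Towards the smaller list, 8.90% of heart and 10.8% of muscle clusters met C2C12, against 4.19% and 5.29% of all clusters. By gene, Usp5, Usp14 and Otud6b had every heart cluster met in muscle, while the 10 heart clusters of Usp54 were met once and the 5 of Usp45 not at all. Otud4 gave 16 of the 94 heart clusters met in muscle. Without Otud4 the share met was 35.6% for heart in muscle and 55.9% for muscle in heart. For C2C12 clusters it was then 48.3% in heart and 37.9% in muscle.

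Within 3′ UTRs, 12 of 18 member clusters in C2C12 (66.7%, 41.0 to 86.7%) had their midpoint no more than 500 nt before the end of an annotated transcript, where 41.8% of all C2C12 3′ UTR clusters did. The shares in heart and muscle were 26.0% (16.5 to 37.6%, against 33.1%) and 33.8% (23.2 to 45.7%, against 35.4%). The 12 included clusters of Usp5, Usp7, Usp14, Usp20, Usp32, Usp40, Usp47 and Otud4.

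The 29 symbols without a cluster included 26 protein-coding genes, among them Usp1, Usp11, Usp24, Usp34, Usp36 and Otud1, the Usp17-like genes, Usp26 and Usp9y. The 37 bound members matched to the annotation had a median gene length of 51970 nt and a median 3′ UTR of 1942 nt, where 25 matched members without a cluster had a median gene length of 16970 nt and 23 of them with a 3′ UTR a median of 897 nt. The density of UGU in the 3′ UTR had a median of 28.5 per kb with a cluster and 29.8 without. Usp24 (125110 nt) and Usp34 (182829 nt) are long genes and had none. Across the 37 genes, the number of 3′ UTR clusters had a Pearson's r of 0.414 and a Spearman's rho of 0.274 with the number of UGU in the 3′ UTR in heart, of 0.352 and 0.194 in muscle and of 0.239 and 0.101 in C2C12. With the length of the 3′ UTR the values were 0.297 and 0.231 in heart, 0.218 and 0.137 in muscle and 0.0698 and -0.0519 in C2C12. Genes are not replicates and share 1 library, so these values are given as a description.

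By role, the counts are small. A cluster in some library was present in 59.4% of the protein-coding members and in 36.6% of all protein-coding genes. Of the 11 histone and chromatin members, 4 were bound in some library (Usp3, Usp7, Usp16 and Usp22), with 21 clusters in heart, 13 in muscle and 1 in C2C12. That was close to the share of all genes and below that of the members. Of the 5 listed for DNA repair, 4 were bound, with 25, 21 and 5 clusters, counting Usp29, whose clusters lay far upstream of the annotated gene. Of the 4 listed for TGF-beta and BMP signalling, 3 were bound, with 28, 21 and 4. All 3 listed for the endoplasmic reticulum (Usp19, Usp20, Usp33) were bound, with 14, 5 and 1 clusters. Of the 8 Otud genes, 4 were bound, with 29, 30 and 10 clusters, of which Otud7b, an enzyme for lysine-11 linked chains, held 10, 5 and 1. Of 5 members listed for interferon and innate immunity, 4 were bound.

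Among 30 other deubiquitinases and SUMO proteases listed with them, 22 were bound in some library, against 36.6% of all protein-coding genes. Heart accounted for 18 of the 30 (against 31.3% of all protein-coding genes), muscle for 14 (against 24.3%) and C2C12 for 8 (against 12.5%). Psmd14, the proteasome lid deubiquitinase, had 6, 3 and 4 clusters, Cyld, which cleaves linear and lysine-63 chains, had 7, 10 and 0, and Mindy2 had 14, 9 and 0. The ubiquitin-activating enzymes Uba1 and Uba6 had 5, 2 and 0 and 1, 0 and 0 clusters.

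The sources were checked against marker genes, counted as clusters. Cardiomyocyte markers held 337, 1 and 1 clusters in heart, muscle and C2C12, with Nppa at 0 in every library. Ryr2 alone gave 252 of the heart clusters. Skeletal muscle fibre markers had 18, 99 and 0, with Ryr1 giving 49 of those in muscle. Myoblast and proliferation markers had 5, 4 and 17, of which Ccnd1 gave 5, 3 and 11, with Myf5 and Mki67 at 0. Endothelial markers had 54, 21 and 0 clusters, fibroblast markers 4, 4 and 2 and macrophage markers 2, 1 and 0. The part of endothelial and other cells in the member values was not tested. Clusters were also narrower in C2C12, at a median width of 38 nt for members and for all, than in heart (56 and 55 nt) or muscle (53.5 and 54 nt).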

How the data were processed

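Cluster positions were used as deposited by the authors, 1 list per library, with the Entrez gene identifier in each entry. The score that the authors deposited is 1e-06 in every entry and was not used. Reads were mapped to mm9 with Bowtie and TopHat, per the study's methods and the submitters' processing notes. Tool versions are not stated in these sources. The lists hold no read depth. Identical reads were collapsed and only uniquely mapping reads kept by the authors. Identifiers were paired with symbols through the RefSeq gene table of assembly GRCm38.p6, from which no coordinates were taken, and 7977 of 8037 genes were matched by symbol or synonym to GENCODE vM1 on NCBIM37, the same assembly as mm9. Each cluster was given a gene part by its midpoint, in the order 3′ UTR, coding exon, 5′ UTR, intron and other.

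Shares have exact Clopper-Pearson 95% intervals, and 3′ UTR shares were compared by two-sided Fisher's exact tests with Benjamini-Hochberg adjustment over 3 pairs. Ratios of shares have exact conditional intervals. As the 3-fold rule was first written, a count of 0 was set to 3 clusters. Here a gene with 0 clusters was called only as higher in the other library, since 3 is the most that a 0 allows. Genes with values in the text are the 10 with the most clusters, those with 3′ UTR clusters in all 3 libraries, those past the 3-fold rule, those bound in 1 library with at least 2 clusters, those with coding exon or 5′ UTR clusters and the 5 with the most 3′ UTR clusters per kb (3′ UTR of at least 200 nt) in each library. Other genes were named after their values were seen or from a list. Some listed pathway genes are not reported here. Members and lists were chosen with earlier results of these data known. The functions that assign parts, overlaps and tests were tested on simulated data. Python 3.11.15, scipy 1.17.1 and pysam 0.24.0 were used.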

Additional observations from a re-analysis of the deposited data

How the results depend on the processing

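Of 183 values recomputed under alternatives, 141 kept their direction and stayed within their limits. Part of the 141 could not change: every value at the 30 nt minimum, and muscle values without Usp6nl, which had no muscle cluster. Some values without Otud4 were counted more than once. Every cluster was at least 35 nt wide, so the planned minimum of 30 nt changed nothing, and a minimum of 50 nt, counting up to 2000 nt past a gene's annotated end as 3′ UTR, leaving out Otud4 by name, and calling a gene with 0 clusters in either direction were chosen after seeing the data. No replicate could be left out and no paired analysis was possible because each source had 1 library.

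With clusters of at least 50 nt, the 3′ UTR share of member clusters was 38.3% in heart and 59.0% in muscle, and the muscle minus C2C12 difference turned to 1.90 points (exact adjusted p = 1). The share of clusters met was then 51.9% for heart in muscle, 69.5% for muscle in heart, 100% for C2C12 in heart and 71.4% for C2C12 in muscle. In C2C12, 6 genes had a cluster and 3 a 3′ UTR cluster, with UGU in 100% of clusters, and 2 genes were past 3-fold between heart and muscle. With Usp genes only, the 3′ UTR share was 23.7% in heart and 34.6% in muscle, the difference was -10.9 points (exact adjusted p = 0.109), and members took 0.547% of muscle clusters. Without Otud4, which is level with Usp13 as the member with the most clusters, the muscle share was 36.6% and the difference -11.0 points (exact adjusted p = 0.0808). The heart minus C2C12 difference passed the threshold by any base of the cluster (-21.8 points, exact adjusted p = 0.0203), with coding exon before 3′ UTR (-19.9 points, adjusted p = 0.0333) and without Usp6nl (-21.9 points, adjusted p = 0.0281), so its call depends on these settings. An overlap of 50% of both clusters gave 50.0% for muscle in heart, 2.97% for heart in C2C12, 3.61% for muscle in C2C12, 19.4% for C2C12 in heart and 16.7% for C2C12 in muscle. Among 3′ UTR clusters only, the shares were 65.8% for heart in muscle, 70.3% for muscle in heart, 19.2% for heart in C2C12, 18.9% for muscle in C2C12, 77.8% for C2C12 in heart and 83.3% for C2C12 in muscle. UGU was present 3 or more times in 78.0%, 75.9% and 69.4% of heart, muscle and C2C12 clusters. At least 2 clusters were found in 9 C2C12 genes and at least 2 3′ UTR clusters in 4. A 2-fold rule set apart 5 genes between heart and muscle, 1 between muscle and C2C12 and 5 between heart and C2C12. Setting 0 clusters to 3 in either direction gave 9 between heart and C2C12, of which 6 had 0 in C2C12 (Usp2, Usp3, Usp4, Usp16, Usp33 and Usp46). The cause of these changes was not tested. The C2C12 list is the smallest, so absence of a cluster there was not distinguishable from up to 3 clusters.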
